A study of Patiria miniata with 16 samples.

Results

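The genes described here are the 200 long noncoding RNA (lncRNA) genes with the most reads in the sea star Patiria miniata, measured in pools of whole embryos. They are the top 200 of 2237 genes that the deposited table classes as lncRNA, ranked by their raw counts summed over 16 libraries, in a table of 27818 genes. Of the other lncRNA genes, 1605 had at least 1 count and 432 had none. Each pool held at least 200 embryos, and its polyA RNA was sequenced as stranded, paired-end libraries. The study asked how a collagen-rich extracellular matrix affects germline gene expression, and used beta-aminopropionitrile (BAPN), which inhibits the lysyl oxidases that cross-link collagen. The 8 groups hold 2 libraries each. All are wild type. They are untreated controls of day 2, day 3 and day 4, embryos in BAPN from hatched blastula to day 2, from mid gastrula to day 3, from hatched blastula to day 4 and from mid gastrula to day 4, and recovery embryos, which had BAPN from hatched blastula to day 2 and then a recovery period until day 4. Each of the 5 treated groups combines a library at 1.2 mM BAPN with one at 0.8 mM, and their values are given below in that order, so the spread within such a group includes any effect of dose. Whether both came from separate cultures is not stated, and the p-values therefore measure only how these libraries spread. In pools of whole embryos, fewer cells of a type and less RNA per cell cannot be told apart.

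A lncRNA is a spliced or unspliced transcript in which gene annotation finds no convincing protein-coding frame. Some are antisense to a protein-coding gene, some start back to back with one from a shared promoter region, and some are host transcripts whose introns release small nucleolar RNAs (snoRNAs), which guide the chemical modification of ribosomal RNA. In animal embryos lncRNAs are known for levels that differ strongly between stages and tissues, and for sequences that are poorly conserved, so that most have no name. All 200 genes are named only as uncharacterized loci in the Pmin_3.0 annotation, and roles are given below only for proteins or snoRNAs that they match, contain or neighbour.

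The 200 genes held 2811145 counts, which is 92.5% of all lncRNA counts and 1.46% of all counts. A single gene, LOC119740317 (NW_024037072.1, 32416856 to 32432237, minus strand, Pmin_3.0), held 42.8% of these counts, the top 10 held 66.1% and the top 50 held 85.7%. The first gene had 7.47 times the counts of the second and ranked 5 among all genes. Around the lower limit the counts ran without a gap: the last 3 inside had 1250, 1245 and 1217 counts (LOC119720057, LOC119728612 and LOC119725756), and the first 3 outside had 1206, 1205 and 1188 counts (LOC119722627, LOC119722152 and LOC119731115). Of the 200 genes, 195 had a count in all 16 libraries, and all 200 passed the filter on low counts. The median gene length in the deposited table, which is shorter than the genomic span for all 200 genes, was 2137 bases (412 to 16297), against 908 bases for the other lncRNA genes with a count and 2426 bases for protein-coding genes. Per kilobase of gene length the median was 1205 counts over all libraries, against 46.9 for the other lncRNA genes and 508 for protein-coding genes.

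Levels across the 8 groups differed between genes. The ratio of the highest to the lowest group mean, in CPM (counts set to a common library size with TMM factors), had a median of 3.37 over the 197 genes for which it could be formed, with a range of 1.30 to 274. It was under 2 for 31 genes and over 10 for 30 genes. The other 3 genes (LOC119721880, LOC119738182 and LOC119736917) had 0 counts in both day 2 controls. The group with the highest mean was gastrula to day 4 for 33 genes, the day 2 controls for 41, and recovery for 12.

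**Figure D1:**
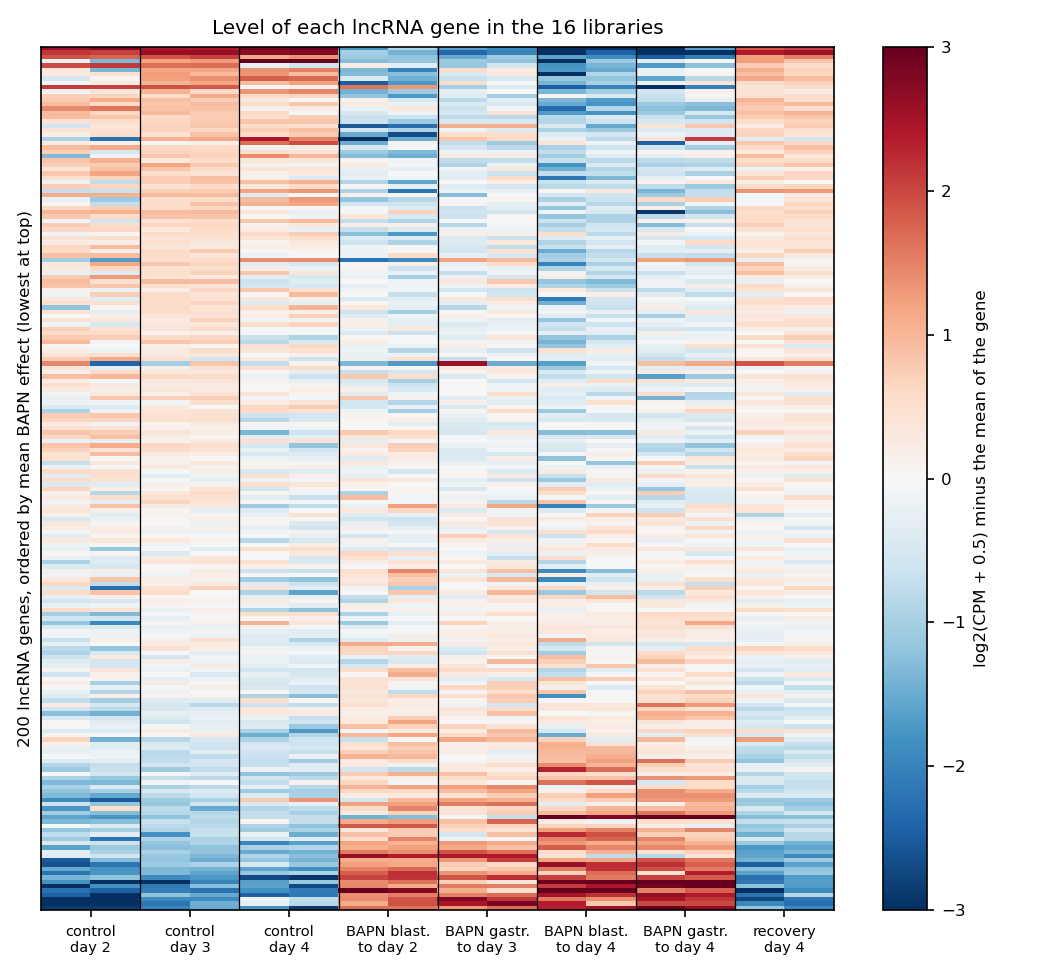
Heat map of the 200 lncRNA genes (rows, ordered by mean BAPN effect with the lowest at the top) in 16 libraries (columns, 2 per group); colour is log2(CPM + 0.5) minus the mean of the gene over the libraries, limited at 3 in either direction. Rows at the top are high in the controls and in recovery, and rows at the bottom are high in the 4 groups collected in BAPN.

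The 200 genes together took a smaller share of the raw counts in BAPN than in controls once the most abundant gene was set aside. With that gene included, the share was 1.16% and 1.21% in day 2 controls, 1.59% and 1.60% in day 3 controls, and 1.63% and 1.64% in day 4 controls. It was 1.28% and 1.24% after blastula to day 2, 1.43% and 1.79% after gastrula to day 3, 1.15% and 1.20% after blastula to day 4, and 1.87% and 1.85% after gastrula to day 4. Treated libraries lay above, around and below the controls of their day, depending on the window. LOC119740317 alone took 0.223% to 1.13% of a library. The other 199 genes took 0.886% to 1.07% in the 6 controls, 0.881% to 0.911% in recovery, and 0.661% to 0.759% in the 8 libraries collected in BAPN, which did not overlap the other 8. These are descriptions of a sum over genes chosen by abundance, with no test.

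**Figure D2:**
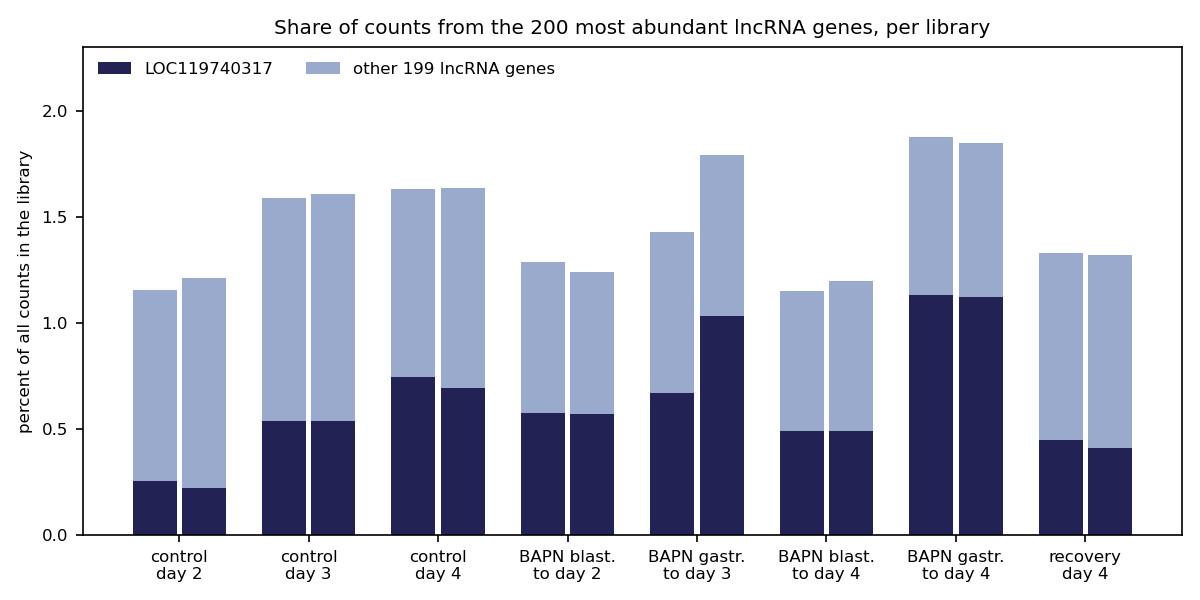
Percent of all counts in each library that came from LOC119740317 (dark) and from the other 199 genes (light), with 2 bars per group (replicates 1 and 2). The dark part ranges from 0.223% to 1.13%, and the light part is lower in the 8 libraries collected in BAPN (0.661% to 0.759%) than in the 6 controls (0.886% to 1.07%).

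Libraries held 9945801 to 14383817 counts. Ribosomal RNA made up 0.323% to 0.977% of them except in recovery (1.34% and 2.02%) and in replicate 2 of the day 4 controls (3.20%), and its part in the results was not tested. Of all 17519 genes tested, the median mean BAPN effect was -0.07 with TMM factors and -0.29 with total counts only, so that changes within about this distance of 0 depend on the scaling. All changes below are log2 values ± SE from the edgeR quasi-likelihood test with Benjamini-Hochberg adjustment over all genes tested, at 2 libraries per group, and "called" means an adjusted p under 0.05.

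For some of the 200 genes the deposited protein matches go against the lncRNA label. A match to a Swiss-Prot protein is deposited for 21 of the 200 genes (10.5%), against 117 of the 1605 other lncRNA genes with a count (7.29%), and 10 of the 200 carry a Pfam domain. The matches are mostly to very short proteins. They include ribosomal proteins L29 (LOC119726563) and L38 (LOC119737385), which rank 3 and 4 of the 200, selenoprotein W (LOC119746416), rank 5, and 2 genes matched to OST4, a small subunit of the enzyme that attaches sugar chains to proteins in the endoplasmic reticulum (LOC119729308 and LOC119729314). Another 5 match subunits of the mitochondrial respiratory chain. This class was noticed after the table had been seen.

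Most of these protein-matching genes were lower in BAPN on average, but neither ribosomal match was called in that average. Averaged over the 3 windows that have controls of the same day (the mean effect), 3 of the 21 rose (14.3%) and 13 fell (61.9%), with a median of -0.44. Of all genes tested 28.1% rose and 30.1% fell, and of the 179 members of the list without such a match 30.2% rose and 38% fell. All 5 respiratory chain matches fell in the mean effect, by 0.31 to 1.41. COX7A2 (LOC119736298) fell by 1.41 ± 0.09, COX7C (LOC119746358) by 1.10 ± 0.09 and NDUFB1 (LOC119743493) by 0.95 ± 0.23. UQCR10, the cytochrome b-c1 subunit 9 (LOC119730494), fell by 0.83 ± 0.09, and NDUFB2 (LOC119741877) by 0.31 ± 0.11. The NDUFB2 value was not called without replicate 1 of the day 2 controls (-0.24) or replicate 2 of blastula to day 2 (-0.27). By window, the NDUFB1 and NDUFB2 matches were called only after gastrula to day 3 (-1.13 and -0.67). After blastula to day 2 they had -0.95 and -0.22, and after blastula to day 4 -0.77 and -0.05. The COX7A2 match stood at 141 and 132 CPM in day 2 controls, 110.2 and 122 CPM in day 3 controls and 104 and 123 CPM in day 4 controls. It stood at 46.3 and 46.8 CPM after blastula to day 2, 42.9 and 41.7 CPM after gastrula to day 3, 41.2 and 55.4 CPM after blastula to day 4 and 46.3 and 33.3 CPM after gastrula to day 4, and at 131 and 124 CPM in recovery. Every library collected in BAPN lay below every other library for this gene. OST4 (LOC119729308) went from 295 and 333 CPM in day 2 controls to 107 and 148 CPM after blastula to day 2 and back to 282 and 227 CPM in recovery, a mean effect of -1.18 ± 0.10, and its second copy had a mean effect of -1.03 ± 0.10; reads may be shared between such copies. The L29 match held between 434 and 752 CPM in all libraries, a mean effect of 0.09 ± 0.08 (adjusted p = 0.373, edgeR). The L38 match had a mean effect of 0.06 ± 0.08 (adjusted p = 0.568, edgeR), in which windows of opposite sign were averaged. It changed by -0.21 after blastula to day 2 and -0.14 after gastrula to day 3, neither called. After blastula to day 4 it was called higher, by 0.52. The falls of the respiratory chain and OST4 matches were called under every other scaling run, except that 1 of the 5 respiratory chain matches was not called without the filter on low counts. With total counts only the 2 ribosomal mean effects turned to -0.13 and -0.17, again not called.

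Over the 3 windows with their own controls, more of the 200 genes fell in BAPN than rose. In the mean effect 57 rose and 81 fell, with a median of -0.18. Over all 17519 genes tested 58.3% were called (28.1% higher and 30.1% lower), with a median of -0.07. Among the 200 the share called was 69% and the share lower 40.5%. The median absolute change was 0.67 for the 200 and 0.75 for all genes tested. The 200 were chosen for high counts, and the part of depth in their share called was not tested. Of the 710 other lncRNA genes tested 30.3% were called, 110 higher and 105 lower; those genes have fewer counts, and the part of depth in this difference was not tested. Leaving out any 1 library gave 51 to 61 higher and 77 to 87 lower. With total counts only the split was 46 higher and 94 lower, and over all 17519 genes 3831 higher and 6655 lower.

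**Figure D3:**
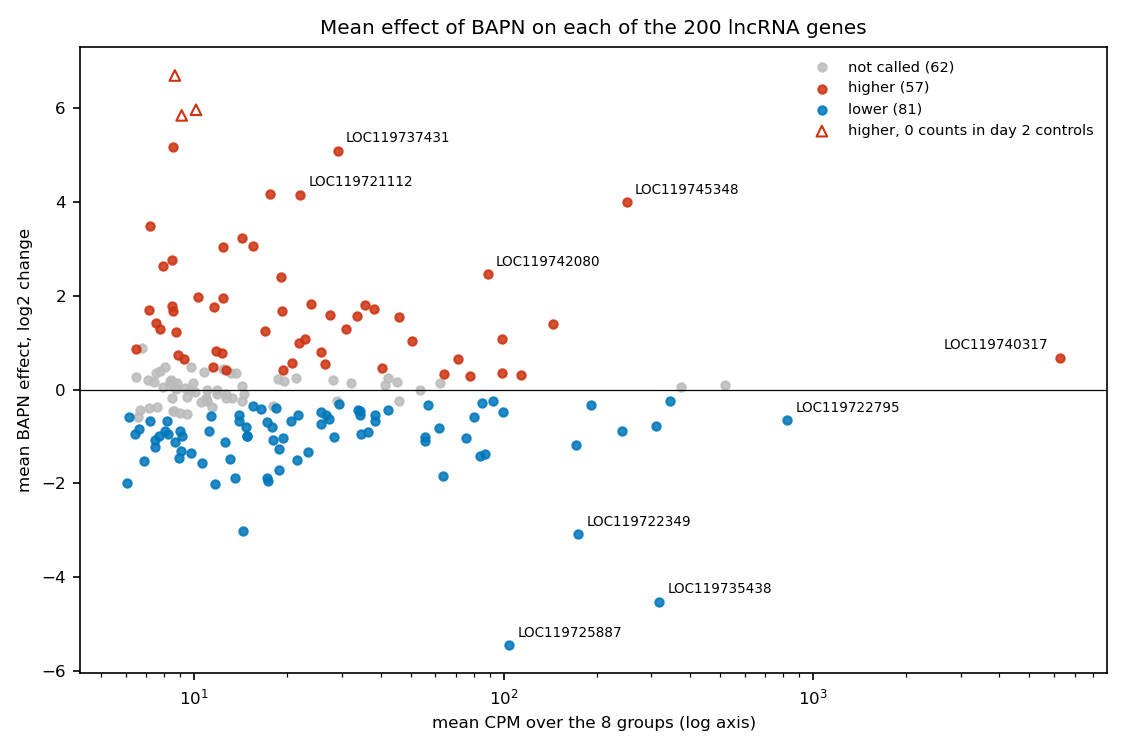
Mean BAPN effect (log2 change over the 3 windows with their own controls, y axis) of each of the 200 lncRNA genes against its mean CPM over the 8 groups (x axis, log scale); red is called higher, blue called lower, grey not called, at an edgeR adjusted p under 0.05. In all 57 rose and 81 fell; the 3 open triangles are genes with 0 counts in the day 2 controls, whose height is a fitted value and not a measured fold.

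Among the 10 most abundant genes the direction differed from gene to gene. The most abundant, LOC119740317, stood at 2385 and 2083 CPM in day 2 controls, 4712 and 4702 CPM in day 3 controls and 7167 and 6965 CPM in day 4 controls. It stood at 6254 and 6507 CPM after blastula to day 2, 6852 and 10473 CPM after gastrula to day 3, 5559.8 and 5525 CPM after blastula to day 4 and 12014 and 11663 CPM after gastrula to day 4, and at 3848 and 3992 CPM in recovery. It thus climbed from day to day in controls, stood above the controls of its day in 3 BAPN windows, and stood below the day 4 controls after blastula to day 4 and in recovery. The change was 1.51 ± 0.14 after blastula to day 2 and 0.88 ± 0.14 after gastrula to day 3, then -0.35 ± 0.14 after blastula to day 4 (adjusted p = 0.0425, edgeR, a call lost without any 1 of the 4 libraries, at -0.31 to -0.37, in the fit of the compared groups alone, and with the replicate block at an adjusted p of 0.064) and 0.74 ± 0.14 after gastrula to day 4. The day 4 effect of the blastula start differed from its day 2 effect by -1.86 ± 0.20 (adjusted p = 6.2e-07, edgeR). Per kilobase it averaged 442 CPM over the groups, below the 1176 CPM per kilobase of the second gene, LOC119722795, which is only 700 bases long. LOC119722795 spread widely in controls, with 709 and 1299 CPM at day 2 and 803 and 1508 CPM at day 4, and its mean effect of -0.65 ± 0.22 (adjusted p = 0.0312, edgeR) was not called in 6 of the 12 fits without 1 library, at -0.47 to -0.69.

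LOC119722889, rank 7, differed between the blastula and gastrula starts of treatment. By day 4 the earlier start also meant more time in BAPN, so stage of start and duration cannot be told apart. It stood at 111 and 71.4 CPM in day 2 controls, 328 and 349.7 CPM in day 3 controls and 609.6 and 612 CPM in day 4 controls. After a gastrula start it stood at 532 and 454 CPM at day 3 and 536 and 570.4 CPM at day 4, and after a blastula start at 48.8 and 60.9 CPM at day 2 and 120.2 and 158 CPM at day 4. Recovery libraries had 219 and 194 CPM. The blastula start lay 1.99 ± 0.17 below the gastrula start at day 4 on the log2 scale (adjusted p = 5.8e-07, edgeR), and the groups did not overlap. Against day 4 controls the blastula start fell by 2.13 ± 0.18. Against day 3 controls the gastrula start rose by 0.54 ± 0.17, a call lost with total counts only (0.32), with treated and control libraries paired in a replicate block (0.53, adjusted p = 0.066, edgeR), without gastrula to day 3 replicate 1 (0.42) and without day 3 control replicate 1 (0.49) or 2 (0.58). The neighbouring lncRNA gene LOC119722890 lies 1709 bases away on the same strand and had a mean effect of -1.27 ± 0.42, a call lost without day 2 control replicate 1 (-0.95), gastrula to day 3 replicate 2 (-1.23) or blastula to day 4 replicate 2 (-1.18) and with the replicate block (-1.31, adjusted p = 0.071, edgeR), and -1.89 without blastula to day 2 replicate 2. Of the remaining abundant genes, LOC119735590 fell in the mean effect by 0.88 ± 0.07, LOC119744795 by 0.34 ± 0.07 and the selenoprotein W match by 0.25 ± 0.07. LOC119744795 was called lower after blastula to day 2 (-0.69) and gastrula to day 3 (-0.52), but not called after blastula to day 4 (0.2). The selenoprotein W match was called lower only after blastula to day 4 (-0.57), with 0.07 and -0.25 in the earlier windows.

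The deepest falls came from 3 abundant genes that dropped to a small part of their control level in BAPN and were high again in recovery. LOC119735438 (NW_024037068.1, 874006 to 877701, minus strand) stood at 479 and 449 CPM in day 2 controls, 660.3 and 662 CPM in day 3 controls and 703 and 748 CPM in day 4 controls. It stood at 53 and 40.3 CPM after blastula to day 2, 20.7 and 27.2 CPM after gastrula to day 3, 13.5 and 19.6 CPM after blastula to day 4 and 6.17 and 8.32 CPM after gastrula to day 4, and at 619 and 569 CPM in recovery. The groups with and without BAPN did not overlap, and the lowest values were those of the gastrula start at day 4. The mean effect was -4.52 ± 0.11 (adjusted p = 6.1e-19, edgeR, lower in 6 of 6 libraries).

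LOC119725887 (NW_024037057.1, 15014333 to 15020713, minus strand) stood at 203 and 227 CPM in day 2 controls, 181 and 179.6 CPM in day 3 controls and 247 and 310.4 CPM in day 4 controls, and at 9.54 and 17.4 CPM after blastula to day 2, 10.7 and 8.44 CPM after gastrula to day 3, 0.908 and 1.13 CPM after blastula to day 4 and 2.99 and 10.3 CPM after gastrula to day 4. Recovery libraries had 137 and 122 CPM, below every control. Its mean effect was -5.44 ± 0.25, and its fall deepened from 4.01 ± 0.38 at day 2 to 8.08 ± 0.52 at day 4 of the blastula start (difference -4.07 ± 0.67, adjusted p = 8.4e-04, edgeR). LOC119722349 (NW_024037053.1, 1425072 to 1426280, minus strand) stood at 369.6 and 339 CPM in day 2 controls, 372 and 419 CPM in day 3 controls and 221 and 258 CPM in day 4 controls, and at 46.9 and 43.9 CPM after blastula to day 2, 34.8 and 47.4 CPM after gastrula to day 3, 32.5 and 27.3 CPM after blastula to day 4 and 17.7 and 23.6 CPM after gastrula to day 4. It returned to 293 and 240.1 CPM in recovery, within the range of the 6 controls. Its mean effect was -3.08 ± 0.10 (adjusted p = 9.0e-17, edgeR).

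Among the genes lower in 6 of 6 libraries, the next falls in size were smaller. LOC119732213 fell by 2.02 ± 0.20, LOC119746150 by 1.94 ± 0.27, LOC119742564 by 1.89 ± 0.20, LOC119726238 by 1.84 ± 0.23, LOC119729652 by 1.72 ± 0.16, LOC119739272 by 1.56 ± 0.21 and LOC119727473 by 1.52 ± 0.24. For LOC119746150 the value was -2.57 without blastula to day 4 replicate 2. LOC119726238 also differed between controls, with 156 and 150.2 CPM at day 2 and 35.9 and 39.9 CPM at day 4, and stood at 1.72 and 8.49 CPM after gastrula to day 4, against 53.4 and 47.1 CPM in recovery. LOC119721448 had a mean effect of -3.02 ± 0.37 but was lower than both controls of its day in only 4 of 6 libraries.

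The largest rises were mostly in genes that controls barely expressed. The exception was LOC119745348 (NW_024037074.1, 11018179 to 11034189, plus strand), rank 9. It stood at 44.5 and 50.4 CPM in day 2 controls, 30.8 and 35.3 CPM in day 3 controls and 17.7 and 15.1 CPM in day 4 controls, and at 482 and 529 CPM after blastula to day 2, 429.7 and 546 CPM after gastrula to day 3, 491 and 348 CPM after blastula to day 4 and 484 and 424 CPM after gastrula to day 4. Recovery libraries had 36.4 and 24.5 CPM, so every library collected in BAPN lay above every other library. The mean effect was 3.99 ± 0.12 (adjusted p = 2.6e-16, edgeR, higher in 6 of 6 libraries).

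LOC119737431 (NW_024037048.1, 9396471 to 9410886, minus strand) had the largest share of its counts in 1 group among the genes that rose, 51.2% in blastula to day 4. It stood at 1.27 and 1.04 CPM in day 2 controls, 1.52 and 1.27 CPM in day 3 controls and 1.88 and 1.46 CPM in day 4 controls, and at 68 and 56.2 CPM after blastula to day 2, 17.2 and 11.3 CPM after gastrula to day 3, 146 and 103 CPM after blastula to day 4 and 22.8 and 28.6 CPM after gastrula to day 4. Both blastula starts lay above both gastrula starts. Recovery had 1.8 and 0.15 CPM, so the gene was back near the control level. The mean effect was 5.09 ± 0.25, and the blastula start exceeded the gastrula start at day 4 by 2.28 ± 0.34 (adjusted p = 2.3e-04, edgeR). LOC119721112 rose by 4.15 ± 0.24, LOC119738011 by 3.48 ± 0.34 and LOC119729463 by 3.23 ± 0.18. LOC119721112 reached 60.4 and 64.9 CPM after blastula to day 4 and 83.1 and 64 CPM after gastrula to day 4, from 2.05 and 3.08 CPM in day 4 controls.

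A run of 3 lncRNA genes on the plus strand of scaffold NW_024037052.1 rose together. LOC119721881 (2679071 to 2689412) spans part of LOC119721879 and of LOC119721880, with overlaps of 4313 and 1553 bases, so reads may be shared and the 3 values are not independent. LOC119721879 stood at 0.169 and 1.69 CPM in day 2 controls, 1.28 and 2.68 CPM in day 3 controls and 2.05 and 0.685 CPM in day 4 controls, and at 20.4 and 16.2 CPM after blastula to day 2, 22.4 and 21.5 CPM after gastrula to day 3, 32.1 and 40.9 CPM after blastula to day 4 and 55.9 and 59.3 CPM after gastrula to day 4. LOC119721880 had 0 counts in day 2 controls and 11 and 10.9 CPM after blastula to day 2, at least 82.1-fold higher against a floor of 3 counts over the control group. Against day 4 controls LOC119721881 rose by 5.89 ± 0.61 after blastula to day 4 and LOC119721879 by 4.72 ± 0.50; for the latter the value was 5.73 without day 4 control replicate 1. The nearest protein-coding gene, head to head with this run, is the homolog of TSR1, which in yeast acts in ribosome assembly, and it rose by 0.86 ± 0.09.

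A further pair had 0 counts in day 2 controls. LOC119738182 and LOC119736917 lie on scaffold NW_024037069.1, have lengths of 1313 and 1312 bases and may be copies between which reads are shared; their sequences were not compared. LOC119736917 stood at 0 in both day 2 controls, at 0.669 and 0.671 CPM in day 3 controls and 3.36 and 2.06 CPM in day 4 controls, and at 11 and 15.4 CPM after blastula to day 2, 28.8 and 18.3 CPM after gastrula to day 3, 12.4 and 10.7 CPM after blastula to day 4 and 23.1 and 18.4 CPM after gastrula to day 4. LOC119738182 stood at 0.548 and 1.21 CPM in day 3 controls, 3.44 and 2.14 CPM in day 4 controls and 25.2 and 32.9 CPM after gastrula to day 3. After blastula to day 2 they were at least 97.4-fold and at least 99.1-fold higher than the controls, against the same floor, which covers counting error only. In recovery both lay under the day 4 controls, at 0.469 and 0.15 CPM and 0.469 and 0.75 CPM.

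**Figure D4:**
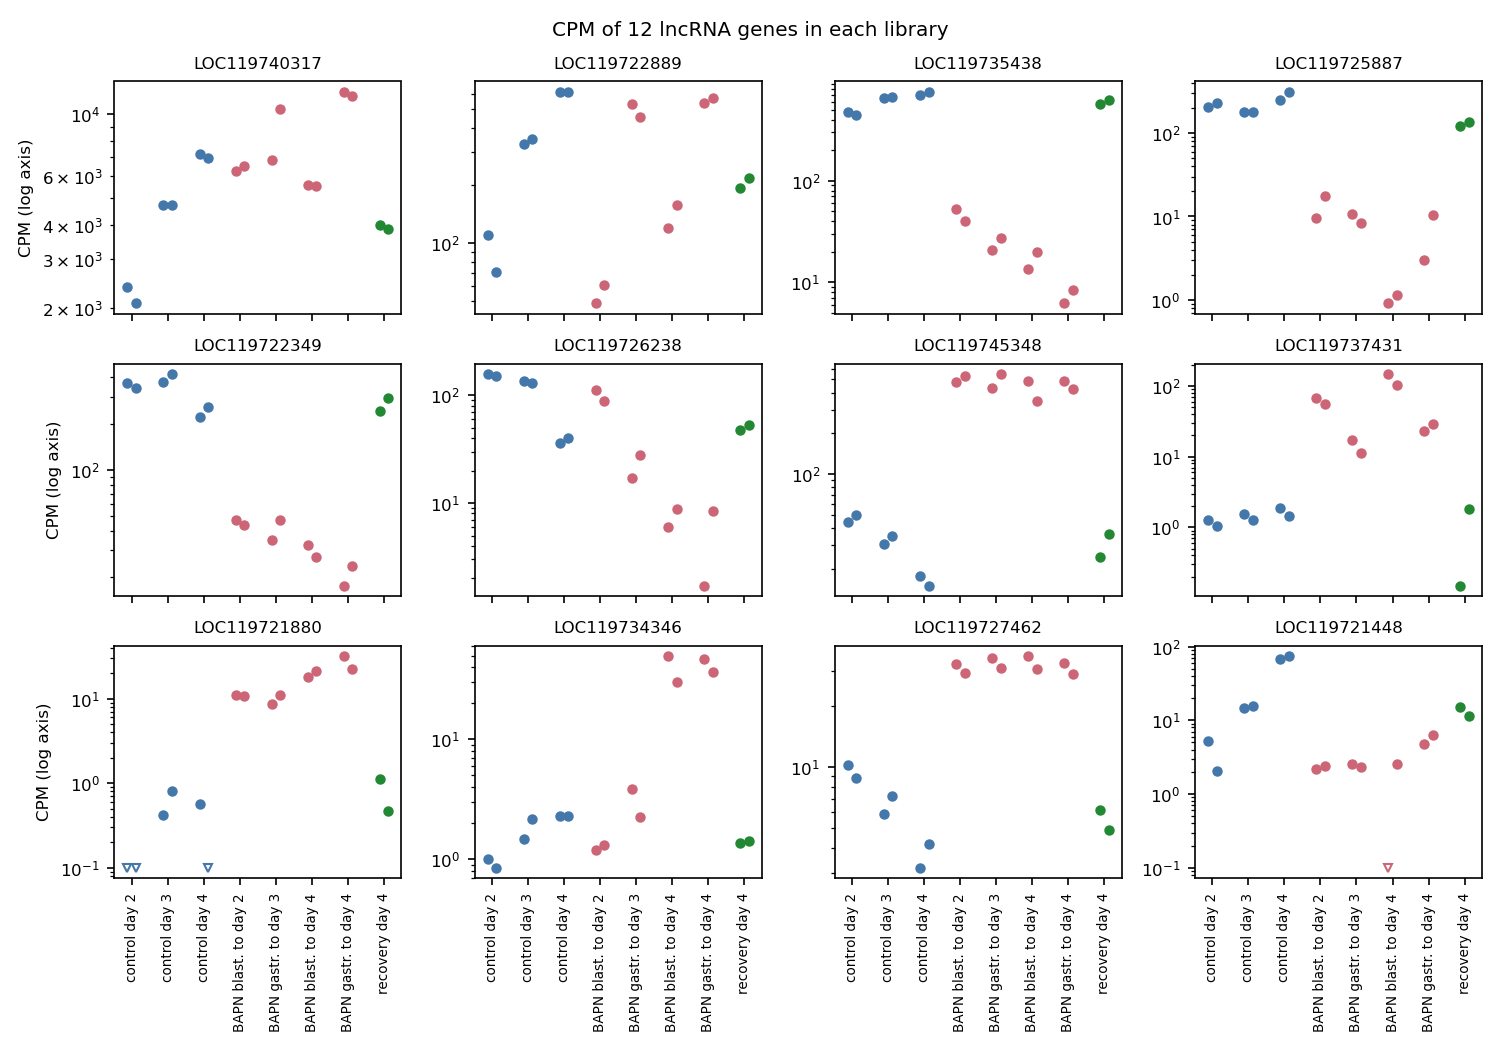
CPM (log axis) of 12 of the lncRNA genes in each library, with 2 points per group; blue is control, red is collected in BAPN, green is recovery, and open triangles drawn at 0.1 mark libraries with 0 counts. LOC119735438, LOC119725887 and LOC119722349 are low and LOC119745348, LOC119737431 and LOC119721880 are high in all 8 libraries collected in BAPN, with recovery on the side of the controls.

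After blastula to day 2, 50 rose and 50 fell (median -0.20), where 41.5% of all genes were called (21.8% higher, 19.7% lower). After gastrula to day 3, 42 rose and 48 fell (median -0.21), where 32.2% of all genes were called (17.1% higher, 15.1% lower). After blastula to day 4, 50 rose and 62 fell (median -0.18), where 51.7% of all genes were called (24.4% higher, 27.3% lower). After gastrula to day 4, which has no labelled control of its own and was set against the same day 4 controls, 57 rose and 47 fell (median 0.13), where 46.1% of all genes were called (21.9% higher, 24.2% lower). With total counts only the first 2 splits were 42 higher and 67 lower, and 35 higher and 68 lower. Over all 17519 genes they were then 2978 higher and 4679 lower, and 2313 higher and 3705 lower. Falls after gastrula to day 3 numbered 29, 31 and 30 without gastrula to day 3 replicate 1, day 3 control replicate 1 and day 3 control replicate 2, and falls after gastrula to day 4 numbered 29 without gastrula to day 4 replicate 1.

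Across the 3 windows with separate controls, 30 of the 200 genes rose in all 3 (15%, against 11.7% of all genes) and 25 fell in all 3 (12.5%, against 8.73%). Of the 200, 49 were called in none (24.5%, against 34.7%). The part of depth in these shares was not tested. Only 3 genes were called in opposite directions in different windows (1.5%, against 3.4%). They were LOC119740317, LOC119722889, and the match to TOM7, a small subunit of the mitochondrial import pore (LOC119746345), which fell by 0.47 ± 0.18 and 0.76 ± 0.18 in the first 2 windows and rose by 0.52 ± 0.18 after blastula to day 4. For the TOM7 match the first call was lost without day 2 control replicate 2 (-0.19) or either treated library (-0.47 and -0.51), without the filter on low counts (-0.46) and in the fit of the compared groups alone (-0.47). The last was lost with total counts only (0.32), in the fit of the compared groups alone (0.49), without blastula to day 4 replicate 2 (0.40) and without day 4 control replicate 1 (0.49) or 2 (0.57). LOC119732016, which lies within a same-strand gene and may share its reads, rose by 3.99 ± 0.49 after gastrula to day 3. It stood at 29 and 24.5 CPM after blastula to day 2 and 24.9 and 25 CPM after gastrula to day 3, but at 5.95 and 2.35 CPM after blastula to day 4 and 2.18 and 6.08 CPM after gastrula to day 4, against 2.13 and 1.54 CPM in day 4 controls.

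Timing within the blastula start was tested as the day 4 effect minus the day 2 effect, each against its own controls. This difference was called higher for 19 genes and lower for 31, where 27.5% of all genes were called (12.1% higher, 15.4% lower). LOC119734346 had a late rise: it stood at 1.19 and 1.32 CPM at day 2 against 1.01 and 0.847 CPM in controls, and at 49.3 and 30.4 CPM at day 4 against 2.29 and 2.31 CPM. At both days the treated libraries lay above the controls, and the difference of the effects was 3.69 ± 0.61 (adjusted p = 1.1e-04, edgeR). Gastrula to day 4 gave 47.3 and 36.3 CPM, and recovery 1.41 and 1.35 CPM. LOC119729521 (2.14 ± 0.54) and LOC119723029 (1.95 ± 0.45) also differed upward. For LOC119723029 this was not a called rise at day 4: it changed by -1.62 at day 2, called lower, and by 0.33 at day 4, not called. In the other direction, LOC119721448 stood at 5.23 and 2.07 CPM in day 2 controls and 68 and 73.5 CPM in day 4 controls, which hold 59.1% of its counts, and at 0 and 2.54 CPM after blastula to day 4. Its day 4 effect was -5.76 ± 0.67, and -4.78 without blastula to day 4 replicate 1, the library at 0 counts. Without replicate 2 the treated group is left at 0 counts, and the fitted value of -12.75 is then no measured fold. It lies inside a glucose transporter-like gene on the same strand, and reads of the 2 genes could be mixed. Without day 4 control replicate 2 the difference of effects was called higher for 12 genes.

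Blastula and gastrula starts also differed from each other. The blastula start also meant a longer time in BAPN by day 4, so stage of start and duration cannot be told apart. At day 4, 16 genes were higher and 26 lower after the blastula start than after the gastrula start (median -0.19), where 14.2% of all genes were called (6.31% higher, 7.84% lower). With total counts only the split was 10 and 33, and over all 17519 genes 781 and 1773. Higher calls numbered 8 without blastula to day 4 replicate 1 and 10 without gastrula to day 4 replicate 1, and lower calls 11 and 13 without blastula to day 4 replicate 1 and gastrula to day 4 replicate 2. Besides LOC119722889 and LOC119737431, the largest differences (LOC119727178, LOC119743443, LOC119729521, LOC119725887, LOC119720057 and LOC119728199) each lost their call without at least 1 library.

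Recovery differed from the day 4 controls in 20 genes upward and 15 downward (median 0.15), where 15.9% of all genes were called (7.27% higher, 8.65% lower). Upward calls numbered 10 without day 4 control replicate 2 or recovery replicate 2, and downward calls 9 without either and 8 without recovery replicate 1. LOC119728297 was higher by 1.64 ± 0.24, with 25.6 and 26.4 CPM in recovery and 9.33 and 7.28 CPM in day 4 controls; day 2 controls had 26.6 and 23.7 CPM. LOC119727122 was higher by 1.89 ± 0.35. LOC119745519 was lower by 2.37 ± 0.45, with 2.66 and 2.55 CPM in recovery and 11 and 16.1 CPM in day 4 controls; day 3 controls had 2.68 and 2.88 CPM. The calls of LOC119727141, LOC119728334, LOC119722890 and LOC119721448 were lost without at least 1 library.

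Recovery and continued BAPN, both from a blastula start and both at day 4, differed in 73 genes upward and 50 downward (median 0.38), where 48.6% of all genes were called (25.3% higher, 23.3% lower). With total counts only the split was 93 and 41, and over all 17519 genes 5733 and 3070. LOC119725887 was higher in recovery by 6.97 ± 0.52, LOC119735438 by 5.16 ± 0.19 and LOC119722349 by 3.16 ± 0.17. LOC119721112 fell by 5.24 ± 0.41 and LOC119734346 by 4.84 ± 0.39. For LOC119737431 the difference was -7.00 ± 0.47, and -6.07 and -9.60 without recovery replicates 1 and 2, since the recovery libraries had 1.8 and 0.15 CPM.

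In untreated development more of the 200 genes rose than fell up to day 3, and more fell than rose after it. From day 2 to day 3, 29 rose and 6 fell (median 0.16), where 16.4% of all genes were called (9.86% higher, 6.55% lower). From day 3 to day 4, 7 rose and 32 fell (median -0.18), where 13.7% of all genes were called (7.95% higher, 5.79% lower). These counts are not firm: without 1 library the rises to day 3 numbered 9 to 17 and the falls to day 4 numbered 12 to 17, for each of the libraries compared. Falls to day 3 numbered 2 without day 2 control replicate 2, day 3 control replicate 1 or day 3 control replicate 2, and rises to day 4 numbered 3, 4 and 4 without day 3 control replicate 1, day 3 control replicate 2 and day 4 control replicate 1. With total counts only, 1030 of all 17519 genes rose and 1770 fell from day 3 to day 4 (median -0.15), so the split over all genes depends on the scaling. LOC119732213 fell from 25.2 and 25.6 CPM at day 3 to 6.47 and 4.88 CPM at day 4, by 2.16 ± 0.32 (adjusted p = 6.7e-05, edgeR). LOC119745519 rose from 2.68 and 2.88 to 11 and 16.1 CPM, by 2.28 ± 0.44. LOC119746088 fell by 0.69 ± 0.15 from day 2 to day 3.

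Of the 200 genes, 4 contain snoRNA genes on their own strand, and all 4 rose in the mean effect, where 28.1% of all genes were called higher. With another scaling, DESeq2 or the replicate block 3 of the 4 were called. LOC119737249 and LOC119737248, which overlap each other by 3604 bases and so may share reads, contain 3 SNORD31 genes. LOC119727462 contains SNORD14, and LOC119734441 contains SNORD79, SNORD24 and a snR60-type gene. In mammals SNORD31 and SNORD79 lie in introns of the noncoding host genes SNHG1 and GAS5. LOC119727462 (NW_024037059.1, 929947 to 939454, minus strand) stood at 10.2 and 8.85 CPM in day 2 controls, 5.9 and 7.18 CPM in day 3 controls and 3.19 and 4.2 CPM in day 4 controls, and at 32.3 and 29.2 CPM after blastula to day 2, 34.7 and 30.7 CPM after gastrula to day 3, 35.2 and 30.5 CPM after blastula to day 4 and 32.6 and 28.8 CPM after gastrula to day 4. Recovery libraries had 4.92 and 6.15 CPM, and every library collected in BAPN lay above all others. Its mean effect was 2.39 ± 0.14 (adjusted p = 2.6e-12, edgeR). LOC119737249 rose by 1.30 ± 0.13 and LOC119737248 by 0.80 ± 0.14. LOC119734441 rose by 0.47 ± 0.19 (adjusted p = 0.0352, edgeR), higher in 5 of 6 libraries; its call was lost with total counts only (0.25), with DESeq2 size factors (0.42), in the DESeq2 Wald test (0.42), with the replicate block (0.42, adjusted p = 0.076, edgeR) and in 9 of the 12 fits without 1 library, at 0.35 to 0.50. Only the fit without the filter on low counts (0.48) and the other 3 of those 12 kept it. The snoRNAs themselves are short and are largely lost from such libraries, so their own counts, 5 to 538 over 16 libraries, are not read as levels.

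Position relative to protein-coding genes was taken from the coordinates in the deposited table. Of the 200 genes, 45 (22.5%) lay head to head with a protein-coding gene, with starts within 5000 bases of each other and facing away, against 10.2% of the other lncRNA genes with a count. Antisense overlap was found for 16 (8%, against 12.6%) and same-strand overlap for 5 (2.5%, against 6.73%), and 134 (67%) had neither relation. Of the 45 head to head pairs, 42 had a neighbour with enough counts. In the mean BAPN effect both partners were called in 23, with 16 in the same direction and 7 in opposite directions. Over all 45 pairs, with an untested neighbour counted as not called, the lncRNA alone was called in 13 and the neighbour alone in 5. Of all genes tested 58.3% were called in this comparison, and no test was made of whether partners were called together more often than unrelated genes. Of 15 antisense pairs tested, both were called in 5, with 3 in the same direction and 2 in opposite ones. The setting in which reads were assigned to strands is not given in the sources used here, so reads of overlapping genes may be mixed.

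**Figure D5:**
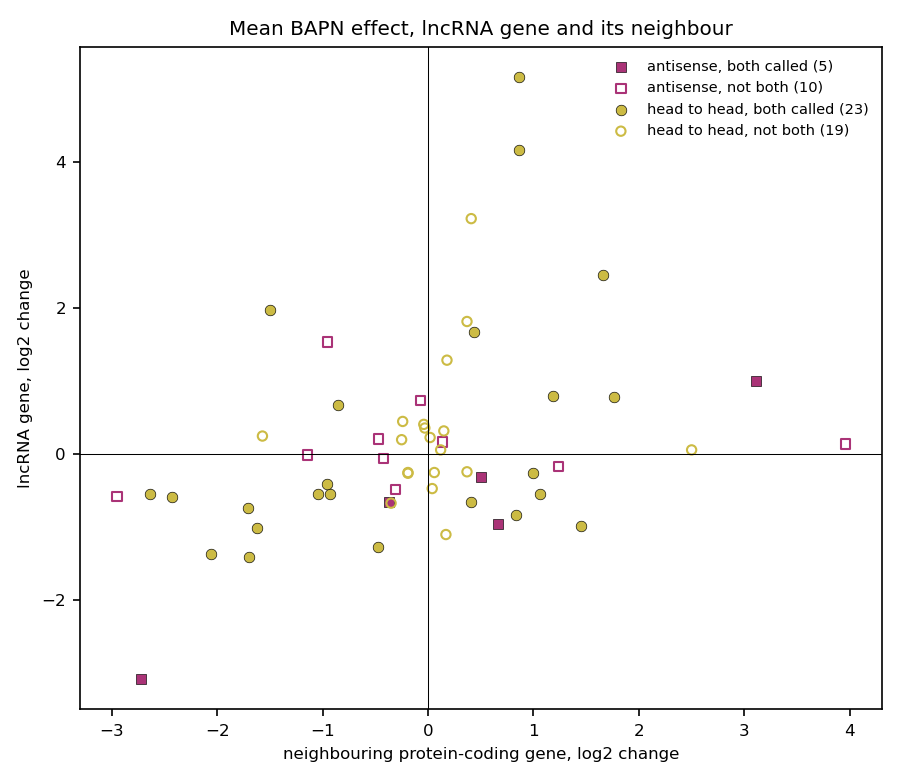
Mean BAPN effect (log2 change) of each lncRNA gene (y axis) against that of its protein-coding neighbour (x axis), for 42 head to head pairs (circles) and 15 antisense pairs (squares); filled symbols mark pairs in which both were called at an edgeR adjusted p under 0.05. Of the filled circles 16 lie in the quadrants of equal sign and 7 in those of opposite sign.

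The antisense pair with the largest change was LOC119722349 and the calreticulin-like gene (LOC119722348), which codes for a calcium-binding chaperone of the endoplasmic reticulum. They overlap tail to tail by only 19 bases. The calreticulin-like gene stood at 1939 and 1838 CPM in day 2 controls, 1641 and 1606 CPM in day 3 controls and 1158 and 1339 CPM in day 4 controls, and at 249.8 and 309.9 CPM after blastula to day 2, 218 and 255 CPM after gastrula to day 3, 235 and 171 CPM after blastula to day 4 and 141 and 169 CPM after gastrula to day 4. Recovery libraries had 1510.1 and 1304 CPM, so both partners were low in every library collected in BAPN and back among the controls in recovery. It fell by 2.72 ± 0.09 and the lncRNA by 3.08 ± 0.10. LOC119742987 fell by 0.66 ± 0.11 and the tankyrase-like gene opposite it, of a family of ADP-ribosylating enzymes, by 0.37 ± 0.09.

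Among head to head pairs that moved together, LOC119742080 went from 19.7 and 28 CPM in day 2 controls to 130.5 and 143 CPM after blastula to day 2 and rose by 2.46 ± 0.10 on average. Its neighbour 414 bases away, similar to the apoptosis inhibitor bcl-2-related protein A1, rose by 1.66 ± 0.08. LOC119743034 fell by 1.37 ± 0.09 and its aquaporin-8-like neighbour, of a family of water channels, by 2.06 ± 0.12. LOC119742539 fell by 1.01 ± 0.09 and a retinol dehydrogenase 13-like gene 234 bases away by 1.62 ± 0.14. LOC119727171 fell by 0.54 ± 0.12 and a gene for phosphoglycerate kinase, a glycolytic enzyme, by 1.04 ± 0.09.

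Pairs also diverged. LOC119740317 rose in the mean effect while its neighbour at 3910 bases, similar to gephyrin, a scaffold protein of inhibitory synapses, fell by 0.85 ± 0.18. LOC119735099 fell by 0.98 ± 0.23 beside a gene similar to the cargo lectin VIP36, which rose by 1.45 ± 0.08. Within the list itself, 28 genes formed 16 pairs within 10000 bases, of which 4 overlap and may share reads. Both were called in 13 pairs, and in 12 of these the direction was the same. The 12 include the pairs among LOC119721879, LOC119721880 and LOC119721881, and the overlapping LOC119737248 and LOC119737249. In the mean effect 69% of the 200 genes and 58.3% of all genes were called. Whether close genes were called together more often than others was not tested.

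Dose was not resolved for these genes. Between 1.2 mM and 0.8 mM, across the 10 treated libraries and with group as a term, edgeR called 0 of the 200 genes in either direction, where 0.0229% of all genes were called. At an unadjusted p under 0.05 there were 18 of the 200, and 1230 of all 17505 genes tested. DESeq2 called 0 higher and 1 lower, where it called 36 and 19 of all 17505 genes. Without the filter on low counts edgeR called 1 higher and 3 lower, where it called 64 and 64 of all 22650 genes. Without recovery replicate 1 or 2 the number called lower was 1. The dose difference in treated libraries minus that in their labelled controls gave 0 calls. At an unadjusted p under 0.05 it gave 11 of the 200, and 758 of all 17519 genes tested. On simulated data the dose test recovered 73% of simulated 2-fold changes and 91% of simulated 4-fold changes, and called 9 unchanged genes. Those data gave each gene the spread typical of its level, with changes set in genes of any class. They therefore do not show the power for the 200 genes.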

How the data were processed

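Raw counts of 27818 genes in 16 libraries were deposited by the authors, beside gene class, coordinates and protein matches. For the aligner, the counter, its strand setting and the build the sources used here give nothing. The coordinates of the 200 genes match the reference table of Pmin_3.0. Total counts were 9945801 to 14383817 per library. From the counts, edgeR 4.0.16 (R 4.3.3) removed 10299 genes and kept 17519 (minimum count 10, minimum total count 15). After TMM scaling, all 8 groups entered 1 robust quasi-likelihood fit, with 8 residual degrees of freedom. A prior count of 2 was used only for the log2 CPM behind the correlations of labelled pairs, not for the log2 changes. In all, 13 comparisons were made, each at a Benjamini-Hochberg adjusted p under 0.05 over all genes tested. On simulated data the mean effect recovered 73% of 2-fold and 92% of 4-fold changes among 17519 genes. The genes and lists were chosen with earlier results of these data known. Named genes are the 10 most abundant, the 10 largest rises and falls of the mean effect among those with 6 of 6 libraries on 1 side, up to 4 per direction in other comparisons, and neighbours and hosts by abundance; further genes with large opposite calls or protein matches were named after their values were seen. Alternatives were other scalings, no filter, DESeq2 1.42.0, a pair block, fits of the compared groups alone, and leaving out each library.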

Additional observations from a re-analysis of the deposited data

Results flagged for a closer look

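The effect of BAPN from a blastula start differed between day 4 and day 2, by a test of the difference itself, in 19 of the 200 genes upward (9.5%) and 31 downward (15.5%). Of all genes tested 12.1% were called higher and 15.4% lower in this difference, which is close to the shares of the list. The day 4 effect exceeded the day 2 effect by 3.69 on the log2 scale for LOC119734346, by 2.14 for LOC119729521, by 1.95 for LOC119723029 and by 1.57 for LOC119732949. The last of these was not called without any 1 of 4 of the 8 libraries or in the fit of the compared groups alone (1.49). For LOC119721448 the difference was -5.09, and -4.07 without blastula to day 4 replicate 1, in which it had 0 counts, and -5.88 without day 2 control replicate 1. Without blastula to day 4 replicate 2 the treated group is left at 0 counts, and the fitted value of -12.08 is no measured fold. For LOC119725887 it was -4.07. For LOC119736917 (adjusted p = 2.8e-05, edgeR) and LOC119738182 (adjusted p = 0.00049, edgeR) no difference in folds is given, because both day 2 controls held 0 counts. What lies behind these differences was not tested.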

How the results depend on the processing

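Of 100 values of genes named by the stated rule and recomputed under other settings, 76 kept direction and call under all settings run, 23 lost the call without 1 library and 9 under another setting, and none turned. Of 34 further called values, those of the 10 most abundant genes, the snoRNA hosts and genes named after their values were seen, 26 kept the call and 8 lost it both without 1 library and under another setting, and none turned. In the fit of the compared groups alone, recovery differed from day 4 controls in 40 genes upward and 29 downward. Of all 17436 genes 2371 and 2878 were called. The blastula start differed from the gastrula start in 9 and 15 (656 and 742 of all 17070). The day 4 minus day 2 effect was called higher in 10 (1328 of all 17518). Falls to day 3 numbered 10 (1427 of all 17389). Day 3 to day 4 gave 23 rises and 63 falls (3276 and 2627 of all 17445). With total counts only, the start of treatment gave 10 higher (781 of all 17519) and day 2 to day 3 gave 3 falls (807 of all 17519). Without the filter on low counts day 3 to day 4 gave 11 rises (1577 of all 23693). Dose then gave 1 higher and 3 lower (64 and 64 of all 22650). DESeq2 gave 11 rises from day 3 to day 4 (1706 of all 17519) and, for dose, 1 lower (19 of all 17505). The causes were not tested.

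Without 1 library the counts ran from 29 to 40 (falls, gastrula to day 3), 29 to 40 (falls, gastrula to day 4), 10 to 15 and 8 to 11 (recovery against controls, higher and lower), 8 to 17 and 11 to 36 (start, higher and lower), 12 to 24 (day 4 minus day 2, higher), 9 to 17 and 2 to 7 (day 2 to day 3, rises and falls), 3 to 5 and 12 to 17 (day 3 to day 4, rises and falls) and 0 to 1 (dose, lower).

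The share of all counts without the most abundant gene was 0.945% (day 2), 1.06% (day 3) and 0.915% (day 4) in controls, 0.69% (blastula to day 2), 0.758% (gastrula to day 3), 0.684% (blastula to day 4) and 0.737% (gastrula to day 4) in BAPN, and 0.896% in recovery. With the most abundant gene included and ribosomal RNA left out of the total, the share of the 200 genes was 1.67% in day 4 controls, 1.88% after gastrula to day 4 and 1.35% in recovery. Within 1000 bases, 15 genes were head to head with a protein-coding gene. Ranking by mean CPM shared 199 of the 200 genes. A search of promoters for motifs was not run, since no promoter sequence was used here.

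For 6 treated libraries a matching control is labelled, but these pairs did not deviate together (correlations 0.0131, -0.00653 and 0.0226). With the replicate block the mean effect gave 55 rises and 79 falls, and over all 17519 genes 4415 and 5162. The block ended 5 of the further calls, those of LOC119722795 (-0.67, adjusted p = 0.12, edgeR), LOC119734441 (0.42), LOC119722890 (-1.31), LOC119740317 after blastula to day 4 (-0.38) and LOC119722889 after gastrula to day 3 (0.53).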
